A study of Mus musculus with 4 samples.

Results

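The 10 integrin alpha subunits described here are Itga1 to Itga9 and Itgav, found as the lines of the count tables that carry these gene symbols, 10 of 23282 entries in all. They were compared between endothelial cells (ECs) sorted from the dura mater, the tough membrane that lines the inside of the skull, and ECs sorted from the brain parenchyma. Each group held 2 libraries, all from C57BL/6J mice aged 8 weeks with no injury or treatment named in the labels, and the methods name male mice. Sorting kept CD31+ cells that lacked CD45 and TER-119, and brain ECs alone were first enriched with anti-CD31 beads, so that this step and the tissue cannot be told apart. Whether mice were pooled, and whether the 2 libraries of a group came from separate mice, is not given in the sources used here, so that p-values measure the spread between these libraries, which may be technical. In such bulk samples, fewer cells of a type and less RNA per cell cannot be told apart.

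An integrin is a receptor made of an alpha and a beta subunit that crosses the plasma membrane and ties the cell to the surrounding matrix. The alpha subunit largely sets which ligand is bound, while talin, kindlin and linked kinases join the receptor to the cytoskeleton on the inside. All 10 members can pair with the beta1 subunit, Itgb1. In vessels, integrins hold ECs on the laminins of the basement membrane and carry the sprouting cell along fibronectin during angiogenesis. By ligand, alpha1 and alpha2 are collagen receptors, alpha3, alpha6 and alpha7 are laminin receptors, and alpha5, alpha8 and alphav bind the Arg-Gly-Asp motif of proteins such as fibronectin and vitronectin. Alpha4 and alpha9 form a subfamily of their own that binds VCAM-1, fibronectin and tenascin-C.

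What the members share apart from their names is shown by the code for the short stretch where the alpha subunit leaves the membrane into the cytoplasm, a conserved site that holds the alpha and beta tails together. The 45 coding bases around it are given 5′ to 3′ from the GENCODE M21 transcripts (GRCm38), with the 5 codons of the conserved site (Gly-Phe-Phe, any residue, Arg) in capitals. The coordinates cover an intron, because each stretch runs across a junction of coding exons.
Itga1, chr13:114960102-114965609, minus strand, exons 28 and 29 of 29: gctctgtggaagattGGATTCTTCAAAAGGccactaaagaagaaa
Itga2, chr13:114836533-114837104, minus strand, exons 29 and 30 of 30: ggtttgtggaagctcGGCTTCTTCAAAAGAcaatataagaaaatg
Itga3, chr11:95046558-95046932, minus strand, exons 24 and 25 of 26: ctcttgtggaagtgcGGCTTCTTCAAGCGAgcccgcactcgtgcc
Itga6, chr2:71849495-71855886, plus strand, exons 25 and 26 of 26: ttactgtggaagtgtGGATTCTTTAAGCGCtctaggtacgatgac
Itga7, chr10:128954060-128957653, plus strand, exons 24 and 25 of 25: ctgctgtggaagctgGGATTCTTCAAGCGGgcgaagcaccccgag
Itga5, chr15:103345320-103345963, minus strand, exons 29 and 30 of 30: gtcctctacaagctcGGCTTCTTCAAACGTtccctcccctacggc
Itga8, chr2:12109169-12110986, minus strand, exons 29 and 30 of 30: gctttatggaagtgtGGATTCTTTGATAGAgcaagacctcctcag
Itgav, chr2:83802991-83803272, plus strand, exons 29 and 30 of 30: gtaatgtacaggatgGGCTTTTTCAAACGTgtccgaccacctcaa
Itga4, chr2:79325683-79326552, plus strand, exons 27 and 28 of 28: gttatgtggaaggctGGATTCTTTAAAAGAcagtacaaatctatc
Itga9, chr9:118887872-118897266, plus strand, exons 27 and 28 of 28: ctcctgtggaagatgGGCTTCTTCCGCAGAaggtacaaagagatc

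The fourth codon of the site coded for lysine in 8 members, for arginine in Itga9 and for aspartic acid in Itga8. In Itga3 the site was held by 2 of 3 complete coding transcripts, and the longest coding transcript lacked it. The coded proteins were 1032 (Itga4) to 1179 (Itga1) residues long. Among the 45 pairs of members, the most alike were Itga6 and Itga7 with 51.1% identical aligned residues, followed by Itga8 and Itgav (48.6%) and Itga5 and Itgav (47.1%). Itga4 and Itga9 shared 43.6% and Itga1 and Itga2 41.2%. Of these relatives, Itga6 and Itga7 were both lower in dura mater ECs, while Itga4 and Itga9, and Itgav and Itga5, lay on opposite sides. None of these differences passed the adjusted threshold in edgeR.

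Libraries held 13518973 to 16096203 counts. Levels are given in CPM, counts scaled to a common library total, after normalization by trimmed means (TMM). The libraries were made with a 3′-end kit, so that levels were not divided by transcript length, and a higher CPM of a gene than of another does not show more transcripts per length. Replicates differed widely. The correlation of log2 CPM across the 9347 genes tested was 0.473 between the brain libraries and 0.594 between the dura mater libraries, and the common biological coefficient of variation was 1.39. Of the genes tested, 7 or fewer counts were found for 24.9% and 24.1% in the brain libraries and for 20.3% and 2.48% in dura mater replicates 1 and 2. The 2 counts of Itga4 and of Itgav in dura mater replicate 1 were among these values. The labelled cell type was checked on 12 pan-endothelial genes: each was counted in every library, and their summed level was 11760 and 14566 CPM in brain ECs against 9204 and 11584 CPM in dura mater ECs. Of these genes, 5 had a log2 fold change above 0 and 7 below. In edgeR 1 passed the adjusted threshold (0.61% of all genes tested did). This was Cldn5, at 1247 and 1317 CPM in brain ECs against 213 and 235 CPM in dura mater ECs (edgeR adjusted p 0.0388). Ptprc, which encodes the CD45 used to remove leukocytes, had 1 to 4 counts in each library. Erythroid genes, whose cells the TER-119 gate should remove, were at 18013 and 25692 CPM in brain ECs against 1496 and 762 CPM in dura mater ECs, and their part in the members that were lower in dura mater ECs was not tested.

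Of the 10 members, 8 passed the filter on low counts and were tested. None passed an adjusted p of 0.05 in edgeR's quasi-likelihood test, where 0.61% of all genes tested did. At an unadjusted p under 0.05, 2 members were higher in dura mater ECs, Itga9 and Itga5, against 7.04% of all genes, and 0 members were lower, against 2.97%. DESeq2 called 1 member, Itga9, higher at an adjusted p under 0.05 (6.9% of genes with an adjusted p) and 0 lower (2.11%), and limma-voom called 0 members (0.856% of all genes tested, in either direction). In CPM the groups did not overlap for 4 members higher in dura mater ECs (Itga1, Itga3, Itga5 and Itga9), a pattern of 26.2% of the genes tested, and for 4 members lower (Itga4, Itga6, Itga7 and Itgav), a pattern of 16.9%. With 2 libraries per group, an exact two-sided permutation test cannot go below a p of 0.333. Itga5, Itga7 and Itga9 passed the filter only through the tissue in which they were high. Itga4 and Itgav, at 2 counts in dura mater replicate 1, also needed their higher brain counts to pass. The numbers of members given here thus describe the 8 members and lend no support. The median log2 fold change of the 8 members was −0.34, with the genes at 0 in a whole group also set to their bound, and that of all genes tested was −0.01.

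**Figure D1:**
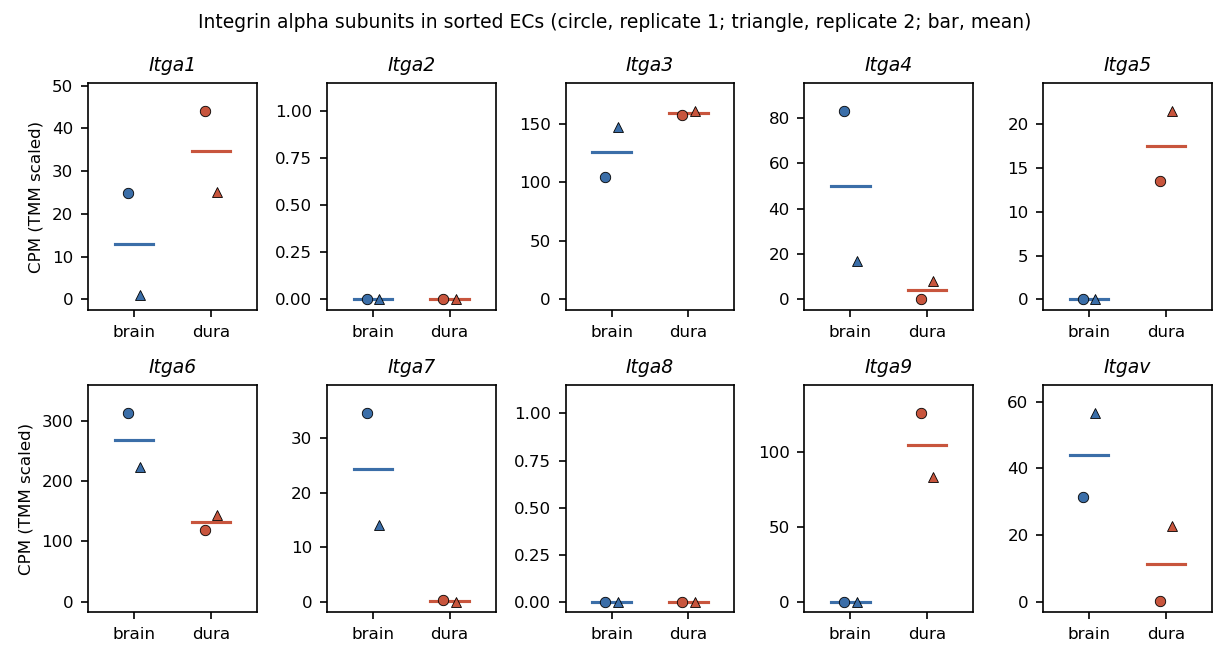
Level of each integrin alpha subunit in the 4 libraries in TMM-scaled CPM, on a linear axis of its own for each gene. Circles are replicate 1, triangles replicate 2 and bars the mean of 2 libraries; Itga5 and Itga9 sit at 0 in both brain libraries, Itga7 is near 0 in both dura mater libraries, and Itga2 and Itga8 are at 0 throughout.

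The alpha9 subunit, which binds tenascin-C and VCAM-1 and is needed for the valves of lymphatic vessels, showed the largest fitted difference among the members. Itga9 (chromosome 9, 118606690 to 118901003, plus strand, GRCm38) had 0 counts in both brain EC libraries against 1690 and 1368 counts in dura mater EC replicates 1 and 2. In CPM these were 126 and 83.8, a mean of 105 ± 29.9 (SD, n = 2), so that the dura mater libraries stood far above the brain libraries. In dura mater ECs its level was at least 484-fold higher, taking 3 counts in each brain library as the most that 0 counts allow. That bound covers counting error only, not the spread between libraries. The log2 fold change fitted by edgeR was 9.56 (SE 1.65, 95% interval 5.39 to 13.73, unadjusted p 0.00178), and the adjusted p of 0.127 missed the threshold. With 0 counts in brain ECs, the fitted value depends on the prior count of 2, a small number added to the counts. At a prior count of 0.5 it was 11.56. The SE and the interval were derived from the fitted value and depend on the prior count too. The call depended on the setting, as DESeq2 gave an adjusted p of 6.5e-08, edgeR without any filter on low counts gave 0.000205, and over the 15 alternatives in which it was tested the adjusted p ranged from 6.5e-08 to 0.771. Leaving out brain replicate 1 or brain replicate 2 brought the adjusted p in edgeR to 4.3e-06 or 3.0e-06, with the lone brain library assumed to vary like the dura mater libraries. Leaving out dura mater replicate 1 or 2 gave 0.771 or 0.197.

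Genes of lymphatic ECs were found in the same libraries as Itga9. Of 7 lymphatic markers, 5 were tested and all 5 were higher in dura mater ECs. In edgeR 0 passed the adjusted threshold and 4 were higher at an unadjusted p under 0.05, against 7.04% of all genes. Prox1, Lyve1, Ccl21a and Mmrn1 had 0 counts in both brain libraries. These 4 passed the filter only through the dura mater libraries, so their number lends no support. Pdpn and Reln were not tested. Pdpn had 3 and 7 counts in brain ECs against 3 and 45 in dura mater replicates 1 and 2, and Reln 1 and 0 against 0 and 502. In dura mater replicates 1 and 2, Prox1 had 492 and 125 counts and Lyve1 911 and 1776. The summed level of the list was 123 and 145 CPM in brain ECs, nearly all of it Flt4, and 433 and 645 CPM in dura mater ECs. Between the dura mater replicates, Prox1 (36.7 and 7.66 CPM) and Mmrn1 (84.4 and 42.3 CPM) were higher in replicate 1, as was Itga9, and Ccl21a (65.8 and 207 CPM), Lyve1 and Flt4 were higher in replicate 2. Fibroblast markers (9 genes) also moved with the tissue, at 7.52 and 51.1 CPM in brain ECs against 381 and 362 CPM in dura mater ECs, although Lum and Pdgfra were at 4 or fewer counts everywhere. The part of these cells in the counts of Itga9 was not tested.

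By CPM in the 4 libraries, not divided by length, the genes nearest to Itga9 were Ednrb, Hecw2, Ripply3, Gpihbp1 and Rasgrf2, at Euclidean distances of 0.21 to 0.68 in log2 CPM among 9339 genes. Ednrb, an endothelin receptor, had 0 counts in both brain libraries against 1479 and 1283 counts in those of the dura mater. Gpihbp1, which carries lipoprotein lipase across capillary endothelium, had 0 in both brain libraries against 2088 and 1950 in those of the dura mater. With only 4 libraries such likeness is common, and 122 genes lay within a distance of 2.

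The alpha5 subunit, the main fibronectin receptor of sprouting ECs, was likewise counted in dura mater ECs alone. Itga5 (chromosome 15, 103344286 to 103366763, minus strand) had 0 counts in both brain EC libraries against 182 and 351 counts in the dura mater EC libraries. These were 13.6 and 21.5 CPM in dura mater replicates 1 and 2, a mean of 17.5 ± 5.61 CPM (SD, n = 2), with no overlap between the tissues. In dura mater ECs its level was at least 80.9-fold higher against 3 counts in each brain library. That bound covers counting error only, not the spread between libraries. Its fitted log2 fold change was 6.99 (SE 2.71, 95% interval 0.13 to 13.85), with an unadjusted p of 0.0472 and an adjusted p of 0.466 in edgeR. This value also depends on the prior count, and was 8.98 at a prior count of 0.5. The adjusted p stayed above the threshold in each alternative fitted, from 0.0824 in DESeq2 to 0.995. The summed levels of the lymphatic and fibroblast markers given for Itga9 were higher in the libraries that held Itga5. The part of these cells in its counts was not tested.

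The other receptors of the Arg-Gly-Asp group differed from Itga5. Itgav, whose alphav subunit takes part in vitronectin binding and in the activation of latent TGF-beta, lies on chromosome 2 (83724397 to 83806916, plus strand). It had 454 and 747 counts in brain ECs, but 2 and 370 counts in dura mater replicates 1 and 2. The corresponding levels were 31.3 and 56.5 CPM in brain ECs against 0.149 and 22.7 CPM in dura mater ECs, so that the tissues did not overlap but the replicates of the dura mater lay further apart on the log2 scale than the tissues. The log2 fold change was −1.93 (SE 2.51, 95% interval −8.01 to 4.15, edgeR adjusted p 1.00). Without dura mater replicate 1 it was −1.09, and without dura mater replicate 2 it was −7.24. An antisense transcript, Gm13684, overlaps 5.90% of the exon length of Itgav, and whether strand was used in counting is not given. In 3′-end libraries such a share of length does not give the share of counts affected, which was not examined. Itga8 (chromosome 2, 12106632 to 12301922, minus strand), the nephronectin receptor of mesenchymal and smooth muscle cells, had 0 counts in every library. For counting error only, a count of 0 allows at most 3 counts, or 0.184 to 0.227 CPM. The spread between libraries can exceed this limit, as Itga2b had 395 and 0 counts in brain replicates 1 and 2.

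The 250 bases before the RefSeq start of Itga5 and Itgav (GRCm38.p6) are shown because these related genes had fitted log2 fold changes of opposite sign. Neither difference passed the adjusted threshold in edgeR. Capitals mark the GC box GGGCGG or its reverse complement CCGCCC.
Itga5, chr15:103366792-103367041, minus strand: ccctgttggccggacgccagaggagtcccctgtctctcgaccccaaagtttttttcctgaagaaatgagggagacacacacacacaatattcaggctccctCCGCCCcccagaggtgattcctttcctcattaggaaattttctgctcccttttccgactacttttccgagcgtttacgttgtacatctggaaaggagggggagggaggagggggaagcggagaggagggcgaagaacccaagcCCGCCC
Itgav, chr2:83724147-83724396, plus strand: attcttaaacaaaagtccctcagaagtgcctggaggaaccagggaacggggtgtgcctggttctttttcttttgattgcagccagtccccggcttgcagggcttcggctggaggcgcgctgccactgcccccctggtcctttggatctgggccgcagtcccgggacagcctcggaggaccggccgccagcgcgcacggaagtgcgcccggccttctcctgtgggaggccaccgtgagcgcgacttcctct

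On both strands, the Itga5 window held 2 GC boxes and the Itgav window 0, where 32.7% of 32851 windows of the same length held at least 1. The TATA box TATAAA (12.4% of windows) and the ETS core CCGGAA (12% of windows) were searched on both strands too and matched in neither window. GC content was 55.6% for Itga5 and 64.4% for Itgav, against a median of 52.4% over the windows. These matches describe the letters and do not show a site in use. For Itga9 the RefSeq table gives a start 105002 bases inside the annotated gene, so its window is not shown.

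Of the laminin receptors, Itga6 and Itga3 were well counted in every library and Itga7 almost only in brain ECs. Itga6 (chromosome 2, 71745616 to 71858416, plus strand), whose alpha6 subunit joins beta1 or beta4 on basement membrane laminins, had 4526 and 2952 counts in brain ECs against 1591 and 2350 in dura mater ECs. Its level was 312 and 223 CPM in brain ECs against 119 and 144 CPM in dura mater ECs, so that both brain libraries stood above both dura mater libraries. The means were 268 ± 63.0 and 131 ± 17.9 CPM (SD, n = 2), 2.04-fold apart. The log2 fold change was −1.03 (SE 0.50, 95% interval −2.24 to 0.19), and neither the unadjusted p of 0.0843 nor the adjusted p of 0.524 in edgeR passed. Itga6 had at least 1591 counts in each library, so its difference did not rest on values near 0. Over 16 alternatives, all refits of the same libraries or part of them, its log2 fold change ranged from −1.32 to −0.82.

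Itga3 (chromosome 11, 95044474 to 95076801, minus strand), a receptor for laminins with alpha5 chains, had the log2 fold change nearest to 0 among the tested members. It had 1509 and 1944 counts in brain ECs against 2109 and 2621 in dura mater ECs, or 104 and 147 CPM against 157 and 161 CPM. The log2 fold change of 0.34 (SE 0.59), with an adjusted p of 1.00 in edgeR, had a 95% interval from −1.08 to 1.76, which leaves room for a difference in either direction. With RLE scaling the groups overlapped (152 CPM in brain replicate 2, 146 CPM in dura mater replicate 2).

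Itga7, whose alpha7 subunit is the laminin receptor of muscle and of vascular smooth muscle, was counted almost only in brain ECs. It lies on chromosome 10 (128933818 to 128958282, plus strand) and had 501 and 186 counts in the brain libraries against 3 and 0 counts in dura mater replicates 1 and 2. The levels were 34.6 and 14.1 CPM in brain ECs against 0.224 and 0 CPM in dura mater ECs. Over the summed libraries there were 687 counts in brain against 3 in dura mater. Scaled by the library totals after TMM, the ratio was 246 (95% exact interval 83.7 to 1194, for counting error only). The log2 fold change was −6.61 (SE 3.27, 95% interval −14.53 to 1.31), with an unadjusted p of 0.0876 and an adjusted p of 0.532 in edgeR. At a prior count of 0.5 it was −7.39. Of 11 mural markers, which mark smooth muscle and pericytes, 10 were tested, 7 with a log2 fold change above 0 and 3 below, and a median of 1.41. In 4 of them both dura mater libraries lay above both brain libraries (Kcnj8, Cspg4, Notch3 and Tagln), a pattern of 26.2% of all genes tested. In 1, Des, they lay below, a pattern of 16.9%. Kcnj8, Cspg4 and Notch3 passed the filter only through the dura mater libraries. Kcnj8 had 0 counts in both brain libraries against 468 and 410 in those of the dura mater, and Des had 1056 and 1350 against 412 and 284. The summed level of the list, mainly Acta2 and Myh11, was 694 and 1178 CPM in brain ECs against 1165 and 697 CPM in dura mater ECs. The part of mural RNA in the counts of Itga7 was not tested.

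Itga4 (chromosome 2, 79255426 to 79333123, plus strand) encodes the alpha4 subunit, known best as the leukocyte receptor for VCAM-1. It had 1201 and 222 counts in brain ECs against 2 and 130 counts in dura mater ECs. The levels were 82.9 and 16.8 CPM in brain replicates 1 and 2 and 0.149 and 7.96 CPM in dura mater replicates 1 and 2, so that replicates of each tissue were far apart although the tissues did not overlap. Its log2 fold change was −3.57 (SE 2.62, 95% interval −9.91 to 2.77, edgeR adjusted p 0.837), and it was −2.09 without brain replicate 1 and −7.41 without dura mater replicate 2. Leukocyte markers (10 genes) summed to 2.00 and 53.0 CPM in brain ECs against 53.0 and 29.9 CPM in dura mater ECs. Of the 4 that were tested, 3 had a log2 fold change above 0 and 1, Csf1r, below. Csf1r made up 0.276 and 48.8 CPM of the sums in brain ECs. Cd68 was higher in dura mater ECs, with 4 and 3 counts in brain ECs against 550 and 441 in dura mater ECs. The part of leukocyte RNA in the counts of Itga4 was not tested. Exons of Cerkl on the other strand overlap 8.04% of the exon length of Itga4, a share of length that does not give the share of counts affected.

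Of the collagen receptors, Itga1 was counted in each library and Itga2 in none. Itga1 (chromosome 13, 114953096 to 115101964, minus strand), an alpha1 subunit found on microvascular ECs and smooth muscle, had 362 and 15 counts in brain ECs against 590 and 411 in dura mater ECs. In CPM, brain replicates 1 and 2 were at 25 and 1.13 and dura mater replicates at 44.0 and 25.2, so that brain replicate 1 lay next to dura mater replicate 2 and brain replicate 2 far below. The log2 fold change was 1.40 (SE 2.34, 95% interval −4.27 to 7.06, edgeR adjusted p 1.00), and with RLE scaling the groups overlapped. Without brain replicate 1 it was 4.74, and without brain replicate 2 it was 0.42. Another gene on the same strand, Gm49395, overlaps 3.68% of the exon length of Itga1, which again does not give the share of counts affected. Itga2 (chromosome 13, 114833081 to 114932100, minus strand), the collagen receptor of platelets and epithelia, had 0 counts in all 4 libraries. Platelet and megakaryocyte markers (7 genes) were at 130 and 0.680 CPM in brain ECs against 121 and 33.3 CPM in dura mater ECs, and their member Itga2b, the platelet alphaIIb subunit, had 395 and 0 counts against 487 and 0.

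**Figure D2:**
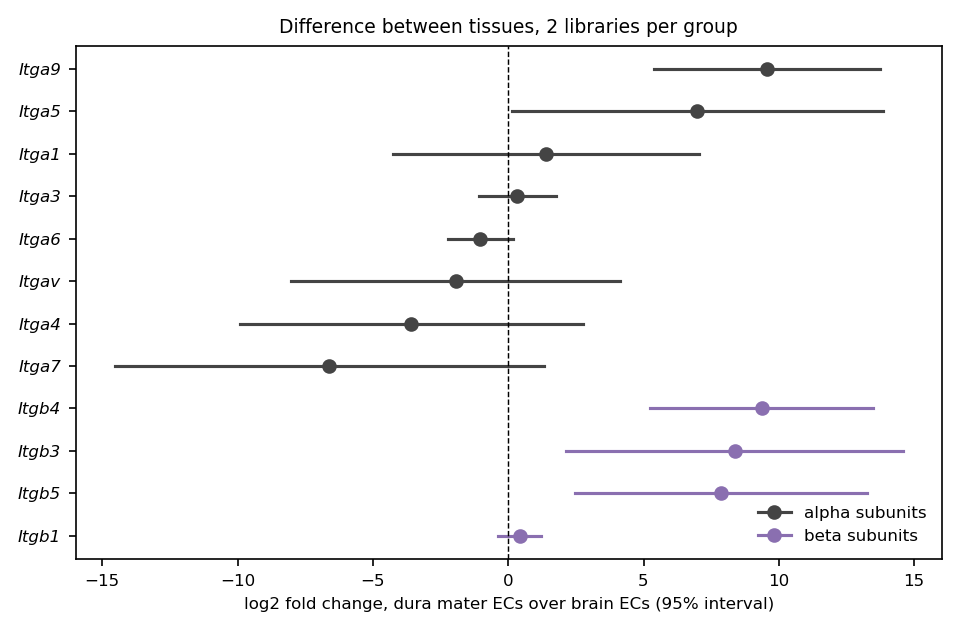
Log2 fold change of dura mater over brain ECs for the 8 alpha subunits and 4 beta subunits that were tested, with 95% intervals from edgeR (n = 2 libraries per group). The intervals of Itga9, Itga5, Itgb4, Itgb3 and Itgb5 lie above 0 before adjustment, and no gene passed the adjusted threshold. Where a tissue is at or near 0 counts, the point and its interval depend on the prior count of 2.

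Because scaling cancels within a library, the make-up of the alpha subunit counts is a second view of the same values. The 10 members held 0.0591% and 0.0439% of all counts in brain replicates 1 and 2 (95% Wilson intervals 0.0579 to 0.0604 and 0.0428 to 0.0450) and 0.0456% and 0.0472% in dura mater replicates 1 and 2 (0.0445 to 0.0468 and 0.0462 to 0.0483). The total thus overlapped between tissues. The shares are of counts, not of molecules. Itga6 made up 52.9% and 48.7% of these counts in brain ECs against 25.8% and 30.9% in dura mater ECs. Itga9 made up 0% in both brain libraries, where a count of 0 allows up to 0.0351% and 0.0495%, and 27.4% (26.3 to 28.5) and 18% (17.2 to 18.9) in the dura mater libraries. The share of Itga3 was 17.6% and 32% in brain ECs against 34.2% and 34.5% in dura mater ECs. Intervals and limits cover counting error only, and no test was made of these shares.

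**Figure D3:**
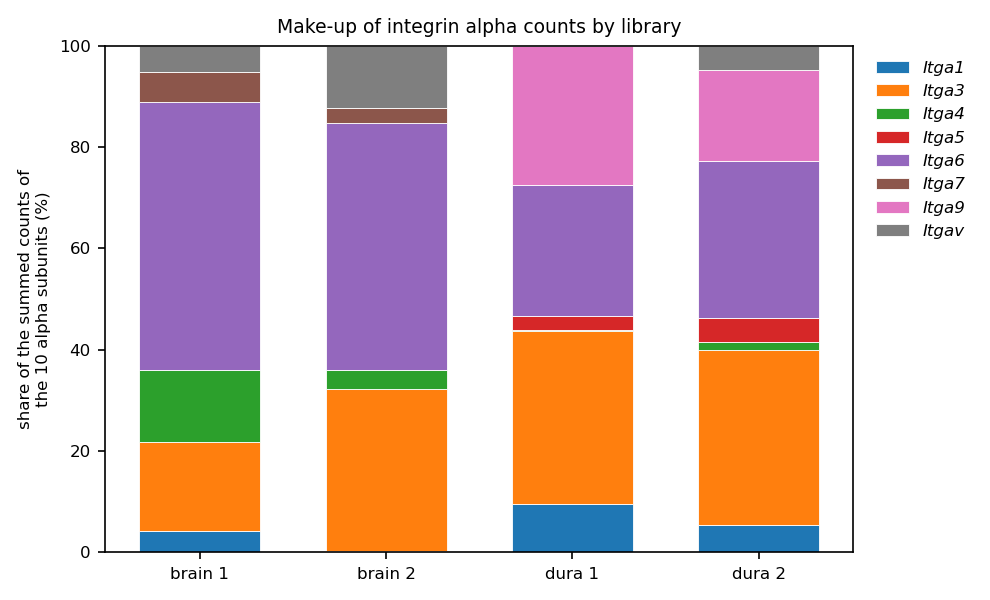
Share of each alpha subunit in the summed counts of the 10 members, in percent, for each library. Itga6 fills 52.9% and 48.7% of the bars of brain ECs and 25.8% and 30.9% of those of dura mater ECs, where Itga9 takes 27.4% and 18%.

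The partners of the members were read from lists of the pathway. Itgb1, which encodes the beta1 subunit shared by all 10 members, was at 987 and 716 CPM in brain ECs against 1166 and 1109 CPM in dura mater ECs. Its log2 fold change was 0.42 (SE 0.32, 95% interval −0.36 to 1.20, edgeR adjusted p 0.873). Of 8 beta subunits 4 were tested, and all 4 were higher in both dura mater libraries, a pattern of 26.2% of all genes tested. Among them 0 passed the adjusted threshold in edgeR (0.61% of all genes). In edgeR 3 were higher at an unadjusted p under 0.05 (7.04% of all genes), and 3 were called higher in DESeq2 (6.9%). The median log2 fold change was 8.11, or 7.79 with Itgb3 set to its bound, over 4 genes, and was 9.44 at a prior count of 0.5. Itgb3, Itgb4 and Itgb5 passed the filter only through the dura mater libraries, so these counts and the median lend no support.

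Besides Itgb1, 3 beta subunits that pair with alphav (Itgb3, Itgb5) or alpha6 (Itgb4) were tested, and these were near 0 in brain ECs. Itgb3 had 0 counts in both brain libraries against 727 and 607 in those of the dura mater, at least 211-fold higher for counting error only. Itgb5 had 2 and 2 counts against 1305 and 555. Itgb4, the partner of alpha6 in hemidesmosomes, had 0 and 1 counts against 1256 and 2261. Their adjusted p in edgeR were 0.396, 0.328 and 0.108. In the dura mater libraries, where these partners were counted, Itgav and Itga6 themselves were below their levels in brain ECs. Itgb2 had 1 or 2 counts in each library, and Itgb6, Itgb7 and Itgb8 had 0.

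The alpha subunits outside the 10 members were mostly absent. Itgad and Itgae had 0 counts in every library, and the leukocyte subunits Itgal and Itgax had at most 3. Itgam had 1 and 2 counts in brain ECs against 87 and 0 in dura mater ECs. Itga10 and Itga11, further collagen receptors, had 0 counts in both brain libraries. In dura mater replicates 1 and 2 Itga10 had 1 and 89 counts and Itga11 422 and 2, so that each was counted in a different replicate and neither passed the filter.

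Of 27 activators and adhesion adaptors, 22 were tested, of which 15 lay above and 7 below their level in brain ECs, with a median log2 fold change of 0.27. In edgeR 0 passed the adjusted threshold. At an unadjusted p under 0.05 in edgeR, 2 were higher, against 7.04% of all genes, and 1 lower, against 2.97%. DESeq2 called 1, Ptk2b, higher, against 6.9% of genes. Ptk2b passed the filter only through the dura mater libraries, so its call lends no support. Ptk2b, a kinase related to focal adhesion kinase, had 1 and 0 counts in brain ECs against 1506 and 1945 in dura mater ECs, with an adjusted p of 0.102 in edgeR. Bcar1, the adaptor p130Cas, was at 37.1 and 29.6 CPM in brain ECs against 173 and 176 CPM in dura mater ECs, with a log2 fold change of 2.38 ± 0.74 (SE) and an adjusted p of 0.391 in edgeR. Lims2, a partner of integrin-linked kinase, went the other way, with 577 and 484 CPM against 197 and 282 CPM and a log2 fold change of −1.15 ± 0.41 (SE) and an adjusted p of 0.466 in edgeR.

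Of 30 integrin ligands, 21 were tested, of which 18 were higher and 3 lower, with a median log2 fold change of 1.23. In edgeR 0 passed the adjusted threshold and 7 had an unadjusted p under 0.05, 6 of them higher (7.04% of all genes higher, 2.97% lower). DESeq2 called 6, 5 of them higher (6.9% of genes higher, 2.11% lower), and limma-voom called 0. Of the ligands named below, DESeq2 called Fn1 lower and Vcam1, Ctgf and Col1a2 higher, and it did not call Mfge8 or Lama1. Genes such as Lama1 passed the filter only through the dura mater libraries, so these counts lend no support. Fn1, the fibronectin bound by alpha5, was lower in dura mater ECs, at 1123 and 1217 CPM in brain ECs against 369 and 470 CPM in dura mater ECs. Its log2 fold change was −1.48 (SE 0.33, 95% interval −2.28 to −0.68, edgeR adjusted p 0.194). Fn1 and its receptor subunit Itga5 thus lay on opposite sides. Vcam1, a ligand of alpha4 and alpha9, was at 644 and 478 CPM in brain ECs against 1755 and 1059 CPM in dura mater ECs, with a log2 fold change of 1.33 ± 0.38 (SE) and an adjusted p of 0.340 in edgeR. Ctgf, a matricellular protein, was at 487 and 194 CPM against 1066 and 1599 CPM (edgeR adjusted p 0.286). Mfge8, which binds alphav integrins, was at 449 and 474 CPM against 904 and 1167 CPM (edgeR adjusted p 0.330). Col1a2, a chain of collagen I, had 4 and 31 counts against 1135 and 1913, and stands in the fibroblast list as well. Lama1, a laminin chain, had 0 counts in both brain libraries against 358 and 147 in those of the dura mater.

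**Figure D4:**
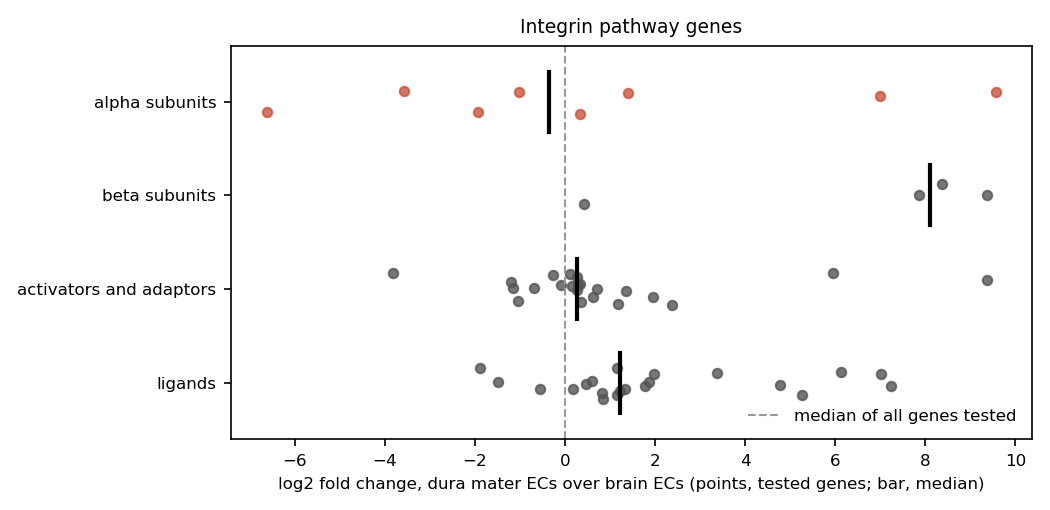
Log2 fold change of dura mater over brain ECs for each tested gene of the 4 groups of integrin genes, with black bars for the group medians (−0.34 for alpha subunits, 8.11 for beta subunits, 0.27 for activators and adaptors, 1.23 for ligands). The dashed line is the median of all genes tested (−0.01), and the alpha subunits spread to both sides of it. Itgb3, Itgb4 and Itgb5 passed the filter only through the dura mater libraries, so the median of the beta subunits lends no support.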

How the data were processed

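RNA of sorted ECs was sequenced in 4 libraries made with a Lexogen QuantSeq kit. For each library the authors deposited raw counts, whole numbers for 23282 gene symbols. The methods of the study name TopHat and cufflinks, while the submitters' processing notes name Bowtie2, edgeR and mm10. The counting step, the annotation and the use of strand or molecular identifiers are not given in the sources used here.

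Groups and replicate numbers were taken from the sample titles. All genes kept by filterByExpr (9347) were fitted with edgeR 4.0.16 (R 4.3.3, quasi-likelihood test, TMM, tissue as the only term, Benjamini-Hochberg adjustment, log2 fold changes with a prior count of 2). The test of cufflinks could not be run without alignments. Standard errors were derived from each log2 fold change and its F statistic, so that near 0 counts they depend on the prior count as well. DESeq2 1.42.0 and limma 3.58.1 were alternatives, besides other scalings, filters, a replicate block and each library left out. Scripts were tested on simulated data. Libraries with the same replicate number showed no shared deviation from their group means (correlation −0.0208). With replicates this far apart, that value cannot show whether such libraries came from the same mice. Replicates were not copies of the same counts (chi-square over degrees of freedom 363 in brain, 230 in dura mater), which does not show that they came from separate mice.

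Named genes were the members, all alpha and beta subunits, up to 6 genes of smallest unadjusted p per pathway list, and the 5 genes most like the member of smallest p. The members, lists and tests were chosen with earlier results of these data known. Other genes are markers, and those printed by name from a marker list were chosen after their values were seen. Of the remaining marker lists, astrocyte genes summed to 51.6 and 7.94 CPM in brain ECs against 418 and 161 CPM in dura mater ECs. Of these sums Gja1 made up 51.3 and 7.79 CPM in brain ECs and 272 and 151 CPM in dura mater ECs. Slc1a3 had 1 and 1 counts in brain ECs against 915 and 74 in dura mater ECs, Slc1a2 1 and 0 against 863 and 87, and Aqp4 0 in every library. Sums were 197 and 209 CPM in brain ECs against 324 and 194 CPM in dura mater ECs for neurons. For oligodendrocytes they were 102 and 5.22 CPM against 119 and 47.8 CPM. Positions and coding bases are from GENCODE M21, matched by symbol for 10 of 10 members; RefSeq promoters matched 8. Identity was computed with Biopython 1.88 (BLOSUM62, global alignment).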

Additional observations from a re-analysis of the deposited data

How the results depend on the processing

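Each of the 8 tested members kept the sign of its log2 fold change in each alternative that could be fitted: of 123 such values 0 reversed, 117 stayed on the same side of the threshold, and 6, all of Itga9, passed it. A reversal was hardly possible, because the groups did not overlap in TMM CPM and each alternative refitted the same libraries. The kept signs thus lend no support. The number of members called, 0 in edgeR, was 1 with DESeq2, the newer dispersion estimate, no low-count filter and the replicate block, and 0 to 1 with a library left out. For all genes the count of 57 became 810 with DESeq2, 305 with the newer dispersion estimate, 326 without a filter, 141 with at least 10 counts in every library, 224 with the replicate block and 80 to 740 with a library left out. Itga9 with the replicate block had an edgeR adjusted p of 0.0342; the replicate numbers share nothing in the labels but the number, and the cause of the change was not tested. For activators and adaptors, 0 calls became 1 with DESeq2, the newer estimate, no filter and the block, and 0 to 2 with a library left out. For beta subunits, 0 became 3 with DESeq2, 1 with the newer estimate, no filter and the block, and 0 to 2 with a library left out. For ligands, 0 became 6 with DESeq2, 3 with the newer estimate, 2 without a filter, 1 with at least 10 counts in every library, 2 with the block, and 0 to 7 with a library left out. With at least 10 counts in every library 3 members remained testable, Itga1, Itga3 and Itga6. Non-overlap held for 8 members with TMM, upper-quartile and library-size scaling and thinning, and for 6 with RLE. Upper-quartile scaling moved the median of all genes by 0.14. With library-size scaling the summed mural level, dura mater minus brain, went from −4.58 to 19.98 CPM. The differences of the other marker sums kept their sign. Where an arm was left with 1 library, it was assumed to vary like the other group. For counting error only, depth limits a count of 0 to at most 3 counts, and the spread between 2 replicates limits every test.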
